A study of Homo sapiens with 6 samples.

Results

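EEF1A1, the main gene of translation elongation factor eEF1A, was followed together with its processed pseudogenes and its paralogue EEF1A2 in SH-SY5Y neuroblastoma cells without and with OTULIN. Members were taken by name: the row of EEF1A1, every row named EEF1A1P and a number, and the row of EEF1A2. This gave 24 of the 32862 genes in the table, namely EEF1A1, EEF1A2 and 22 copies. RefSeq GRCh38.p14 names 50 copies of EEF1A1, of which these 22 were in the table and the rest were not analysed here.

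The study compared poly(A) RNA of cells in which OTULIN had been knocked out with CRISPR-Cas9 (OTULIN KO, 3 libraries) with that of wild-type cells (WT, 3 libraries). OTULIN is a deubiquitinase that cleaves linear ubiquitin chains, and SH-SY5Y is an established human neuroblastoma line widely used as a neuron-like cell. Both genotypes were grown untreated in the same serum-containing medium, and all 6 libraries carry the batch label 1. Whether the KO cells were 1 clone, and whether replicates came from separate cultures, is not given in the sources used here. The p-values therefore cover the spread of these libraries, which may be technical.

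eEF1A is the GTPase that carries each aminoacyl-tRNA to the ribosome during translation, and it is among the most abundant proteins of most cells. EEF1A1 is expressed in nearly all tissues, while EEF1A2 takes over in mature neurons, heart and skeletal muscle. Processed pseudogenes are intronless copies of an mRNA that were reverse-transcribed and inserted elsewhere in the genome. Abundant mRNAs such as that of EEF1A1 have left many of them.

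The copies were spread over 13 chromosomes, and 18 of them had 1 exon in GENCODE 29. EEF1A1 itself (ENSG00000156508) lies on chr6:73489308-73525587 on the minus strand of hg38 and overlaps MTO1 on the other strand. Of the copies, 11 overlap another GENCODE 29 gene, and without known strandedness reads of overlapping genes cannot be told apart. The copy that the results turn on, EEF1A1P5 (ENSG00000196205), lies on chr9:133019486-133020874 on the plus strand and overlaps no other annotated gene. It spans 1389 bases, the same number as the EEF1A1 coding sequence of 462 codons. It differs from that sequence at 4 bases, an identity of 99.7%, and keeps an open reading frame of 462 codons. Counted from the first base of the start codon, with the EEF1A1 base first, the differences are T294C, T720C, T933G and C1094T. T294C and T720C leave the encoded amino acid the same, and T933G and C1094T change it. Within the coding sequence, these are the 4 places where reads of parent and copy can be told apart. RefSeq gives EEF1A1P5 a longer span of 1747 bases, and sequence outside the coding bases was not aligned. The 4 places are printed here with the base that differs from EEF1A1 in capitals. The copies are read in the direction of their annotated strand. The EEF1A1P6 copy is given for comparison at the first 2 places. It lies on chr7:22510616-22511999 on the minus strand, within an intron of STEAP1B.
EEF1A1, coding bases 274 to 314: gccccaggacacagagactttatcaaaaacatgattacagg
EEF1A1P5, chr9:133019759-133019799: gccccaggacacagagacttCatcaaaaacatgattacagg
EEF1A1P6, chr7:22511686-22511726: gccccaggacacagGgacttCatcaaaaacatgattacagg
EEF1A1, coding bases 700 to 740: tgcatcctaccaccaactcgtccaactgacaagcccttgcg
EEF1A1P5, chr9:133020185-133020225: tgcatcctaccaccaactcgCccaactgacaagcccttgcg
EEF1A1P6, chr7:22511261-22511301: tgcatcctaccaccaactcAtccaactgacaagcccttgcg
EEF1A1, coding bases 913 to 953: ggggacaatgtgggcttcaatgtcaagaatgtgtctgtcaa
EEF1A1P5, chr9:133020398-133020438: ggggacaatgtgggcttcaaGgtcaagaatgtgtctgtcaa
EEF1A1, coding bases 1074 to 1114: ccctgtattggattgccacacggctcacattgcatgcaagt
EEF1A1P5, chr9:133020559-133020599: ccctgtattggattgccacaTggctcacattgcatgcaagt

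The T294C base is not particular to EEF1A1P5, since 14 of the 21 other copies and EEF1A2 carry it too. T720C was found in none of the other copies but in EEF1A2, T933G in neither, and C1094T in 6 other copies. The longest run of bases that EEF1A1P5 shares with EEF1A1 without a difference is 425. Of all stretches of 50 bases in EEF1A1P5, 85.1% also occur in the EEF1A1 mRNA of 2303 bases, and 51.6% of stretches of 150 bases do. A read from such a stretch matches both genes equally well, and how the authors' counting dealt with such reads is not given in the sources used here.

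Other copies are easier to tell from the parent. EEF1A1P10 (ENSG00000243746), on chr7:144647186-144648575 on the minus strand, differs from the coding sequence at 93 bases and 1 gap, an identity of 93.3%. Only 2.61% of its stretches of 50 bases, and none of its stretches of 100, occur in the EEF1A1 mRNA. The 90 coding bases in which EEF1A1P10 carries the most differences are shown for it, for EEF1A1P24 and EEF1A1P16, which were also higher in KO, and for EEF1A2, with capitals again marking what differs from EEF1A1. EEF1A1P5 and EEF1A1P6 are identical to EEF1A1 over this stretch, and EEF1A1P16 has 1 extra base.
EEF1A1, coding bases 733 to 822: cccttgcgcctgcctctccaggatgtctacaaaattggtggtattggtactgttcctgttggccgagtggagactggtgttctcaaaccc
EEF1A1P10, chr7:144647753-144647842: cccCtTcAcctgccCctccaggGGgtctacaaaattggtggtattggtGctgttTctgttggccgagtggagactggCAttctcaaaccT
EEF1A1P24, chr3:39359276-39359365: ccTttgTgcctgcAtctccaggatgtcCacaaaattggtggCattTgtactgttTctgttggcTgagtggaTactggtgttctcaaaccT
EEF1A1P16, chr12:16991402-16991492: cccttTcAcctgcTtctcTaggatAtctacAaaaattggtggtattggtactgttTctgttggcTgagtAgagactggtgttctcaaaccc
EEF1A2: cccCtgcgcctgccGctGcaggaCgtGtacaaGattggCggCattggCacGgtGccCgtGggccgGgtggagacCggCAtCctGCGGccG

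**Figure D1:**
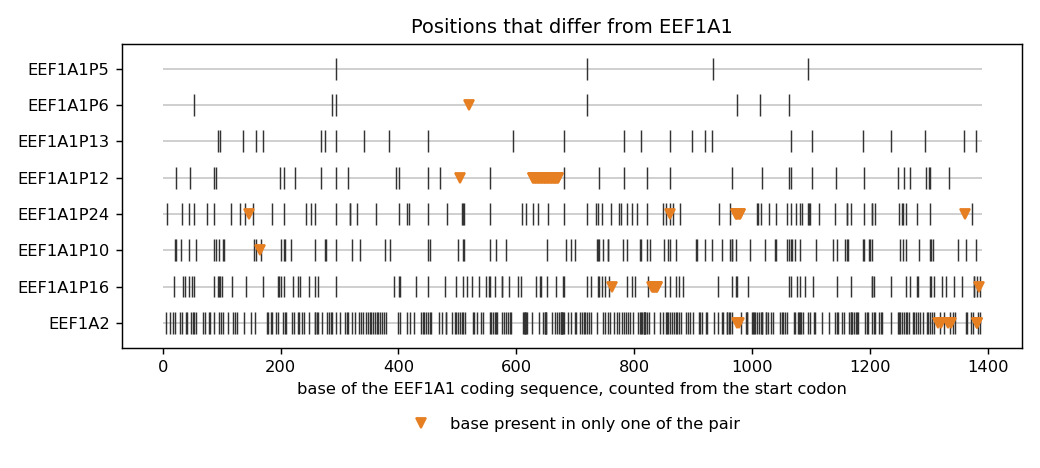
Vertical lines mark the bases at which 7 copies and EEF1A2 differ from the EEF1A1 coding sequence, along its 1389 bases counted from the start codon; orange triangles mark bases present in only 1 sequence of the pair. EEF1A1P5 carries 4 differences over the whole length and EEF1A1P6 carries 7, against 93 in EEF1A1P10 and 293 in EEF1A2.

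The KO libraries stood apart from the WT libraries in depth and make-up. They held 809603, 862932 and 725827 counts, against 62210442, 64352333 and 61772795 in WT, so 1 count is a far larger share of a KO library. Counts were found for 2306 to 2567 genes in KO and for 27453 to 27958 in WT. The rows of 4 ribosomal RNA loci took 19.5% to 36.5% of KO counts, against 0.438% to 0.823% of WT counts. OTULIN had 0 counts in each KO library, against 1682, 2101 and 2155 in WT. No KO library held counts for more than 2567 genes, so a 0 in KO was common. Of the 10820 genes tested, 9519 (88.0%) were called lower in KO. Of 8 adrenergic neuroblastoma markers 2 had counts in KO (HAND2 and ISL1), with a summed level of 350 to 436 CPM over the list (counts scaled to the total of the library), against 4759 to 5422 in WT. The other markers of that list, TH, DBH, CHGA, CHGB, GATA3 and PHOX2A, were at 0 in KO. Summed CPM was 52.1 to 126 in KO and 309 to 320 in WT for mesenchymal markers, 4.64 to 23.4 in KO and 5.92 to 14.7 in WT for epithelial markers, and 0 to 6.89 in KO and 0.466 to 2.31 in WT for blood markers. Depth, make-up and genotype go together in all 6 libraries and cannot be told apart. Whether the KO columns hold whole libraries is not given in the sources used here, and every KO count of 0 and every fold between the groups is subject to that. Likewise, fewer cells and less RNA per cell cannot be told apart.

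Against this background the split of reads between EEF1A1 and its copies was turned round in KO. The gene EEF1A1 was the lower of the pair and its copy EEF1A1P5 the higher, whereas in WT nearly all reads of the family were counted on EEF1A1. EEF1A2, which was well expressed in WT, had no counts in KO. A copy that had no counts in WT, EEF1A1P10, was present in every KO library.

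**Figure D2:**
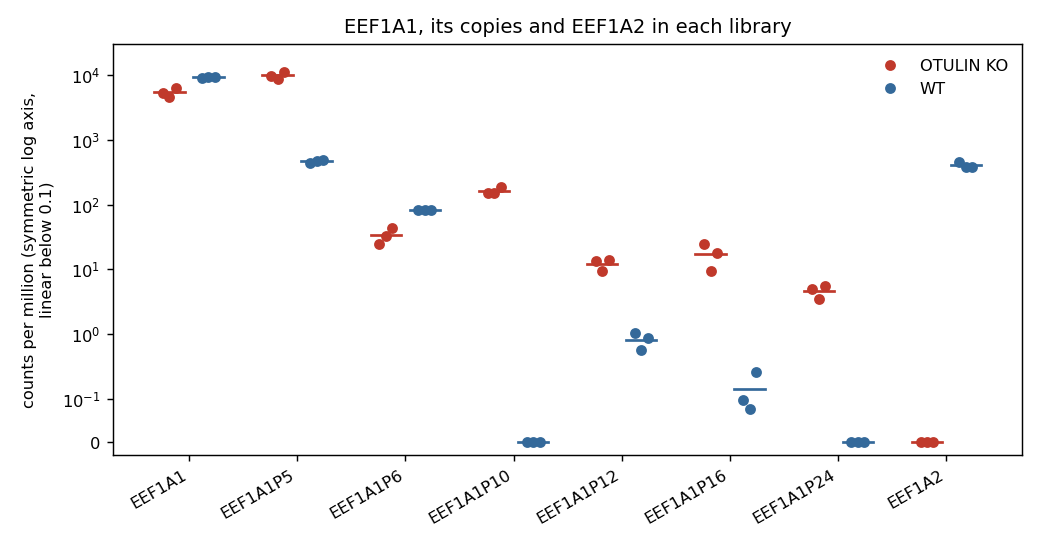
Level in CPM, counts scaled to the total of the library (symmetric log axis, linear below 0.1), with 1 point per library, OTULIN KO red and WT blue, and a line at each mean. EEF1A1P5, EEF1A1P10, EEF1A1P12, EEF1A1P16 and EEF1A1P24 are higher in all 3 KO libraries, and EEF1A1, EEF1A1P6 and EEF1A2 are lower.

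Of the members, 11 passed the filter on low values, a mean of 1 FPKM over the 6 libraries (fragments per kilobase and library size, as the authors deposited them), and entered the test across all genes. Only 5 of them (EEF1A1, EEF1A1P5, EEF1A1P6, EEF1A1P11 and EEF1A1P13) averaged 1 FPKM in both groups. EEF1A1P10, EEF1A1P12, EEF1A1P16 and EEF1A1P24 entered only through KO, and EEF1A2 and EEF1A1P19 only through WT, so each of these had to differ, and their part in the counts supports nothing. For them the adjusted p is given from the fit with no filter on low values, over every gene with a count. With edgeR's quasi-likelihood test and a Benjamini-Hochberg adjusted p under 0.05, 9 of the 11 were called. These were 5 higher in KO (EEF1A1P5, EEF1A1P10, EEF1A1P12, EEF1A1P16 and EEF1A1P24) and 4 lower (EEF1A1, EEF1A1P6, EEF1A1P19 and EEF1A2). Over all genes tested, 95.6% were called, 7.63% higher and 88.0% lower, and in 96.2% the CPM ranges of the groups did not overlap. The median log2 change was -0.70 over the 11 members and -12.42 over all genes tested, of which 8999 entered only through WT and 205 only through KO.

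EEF1A1 kept many reads in KO. In KO it had 4317, 3894 and 4552 counts, against 559354, 600051 and 576782 in WT. Set to the size of each library this was 5332, 4513 and 6271 CPM in KO, against 8991, 9324 and 9337 CPM in WT. Every KO library lay below every WT library, as was so for 88.0% of the genes tested. EEF1A1 averaged 5372 ± 880 CPM in KO and 9218 ± 196 CPM in WT (SD, n = 3 each), a ratio of 0.583. Its log2 change was -1.18 (SE 0.08), with an adjusted p of 1.7e-05 in edgeR's quasi-likelihood test. The change was -1.74 with median-ratio scaling and -0.78 with library totals, both on the log2 scale and both called. EEF1A1 stood at rank 25, 26 and 25 among all genes by counts in KO and at rank 4 in each WT library.

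EEF1A1P5 moved the other way. It had 7870, 7409 and 8186 counts in KO, against 27454, 30324 and 29774 in WT, although the WT libraries held 78.5 times as many counts in all. At its share of the WT libraries, 1115 counts would fall on it in the 3 KO libraries together, and 23465 were found. It averaged 9862 ± 1352 CPM in KO and 465 ± 21 CPM in WT (SD, n = 3 each), 21.2-fold higher in KO. The groups did not overlap, which held in this direction for 8.15% of the genes tested. The log2 change was 4.01 (SE 0.09), with an adjusted p of 1e-06 in edgeR's quasi-likelihood test, and it was 3.44 with median-ratio scaling and 4.41 with library totals. By counts EEF1A1P5 was at rank 15, 14 and 14 of all genes in KO and at rank 255, 216 and 206 in WT.

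On a scale per length the copy exceeded its parent in KO only. EEF1A1P5 stood at 6257, 5508 and 7346 FPKM in KO, against 291.7, 311 and 318 FPKM in WT. EEF1A1 stood at 474, 399 and 564 FPKM in KO and at 820.3, 850 and 850 FPKM in WT. The ratio of copy to parent was 13.2, 13.8 and 13.03 in KO and 0.356, 0.366 and 0.374 in WT on the FPKM scale. The authors' FPKM values divide EEF1A1 by a length 7.25 times that of EEF1A1P5 in KO replicate 1, and by nearly the same in the other libraries. That is more than the mRNA of 2303 bases would give, so this scale favours the copy, and counts are given beside it. In counts, the ratio of EEF1A1P5 to EEF1A1 was 1.82, 1.903 and 1.80 in KO (mean 1.84 ± 0.055) and 0.0491, 0.0505 and 0.0516 in WT (mean 0.0504 ± 0.0013; SD, n = 3 each). The ratio does not depend on library totals. Its mean was 36.5 times as high in KO (p = 0.1, two-sided exact permutation test, which can give no smaller p for 3 against 3).

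The copies together took most of the family's reads in KO. Of the counts of EEF1A1 and its 22 copies, 65.1%, 66.1% and 64.8% lay in copies in KO, against 5.67%, 5.75% and 5.87% in WT. The 95% Clopper-Pearson intervals reached from 64.0% to 67.0% over the KO libraries and from 5.61% to 5.93% over the WT libraries, and cover counting error only. The means were 65.4% ± 0.67 in KO and 5.76% ± 0.099 in WT (n = 3 each, SD), a difference of 59.6 points with p = 0.1 in the exact two-sided permutation test. Leaving out EEF1A1P5, the copies held 4.45% ± 0.23 of the rest in KO and 1.06% ± 0.027 in WT, so the difference fell to 3.39 points and its direction held. EEF1A1P5 made up 97.5% ± 0.084 of all copy counts in KO and 82.4% ± 0.68 in WT. EEF1A1P6 made up 0.329% ± 0.070 in KO and 14.5% ± 0.74 in WT.

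**Figure D3:**
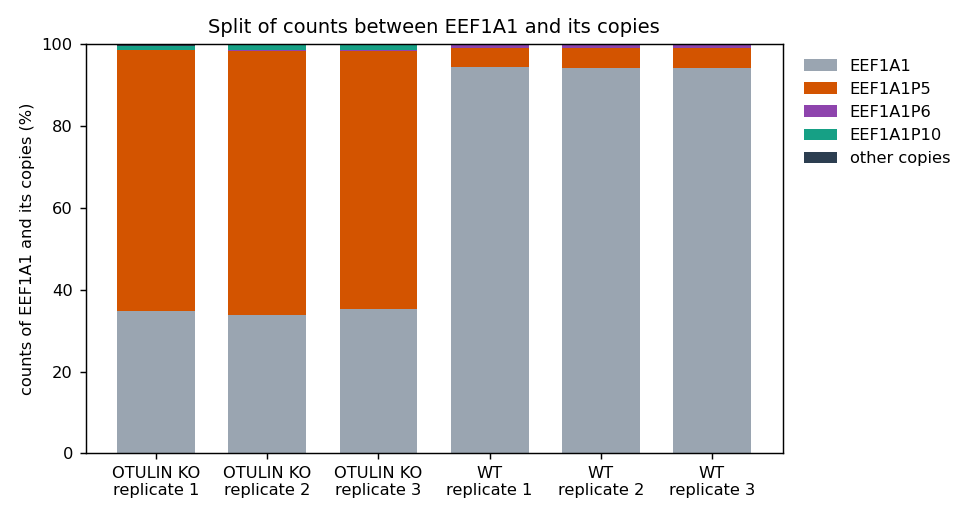
Share of the counts of EEF1A1 and its copies (%) held by EEF1A1, EEF1A1P5, EEF1A1P6, EEF1A1P10 and the other copies, with 1 bar per library. EEF1A1P5 holds 63.2% to 64.5% of family counts in the KO libraries and 4.63% to 4.86% in the WT libraries.

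Added up, the family was not lower in KO on library totals, with TMM factors or outside the ribosomal RNA loci. EEF1A1 and its copies together held 15289, 13321 and 17839 CPM in KO, against 9532, 9893 and 9919 CPM in WT. The groups did not overlap, and the means of 15483 ± 2265 CPM in KO and 9781 ± 217 CPM in WT (SD, n = 3 each) gave a ratio of 1.58 (p = 0.1, exact two-sided permutation test). EEF1A1P5 decided the direction of this sum: without it the family stood at 5621 CPM in KO and 9317 CPM in WT. With totals scaled by TMM factors the sums were 13448 ± 1295 CPM in KO and 11214 ± 167 CPM in WT, and over counts outside the 4 ribosomal RNA loci 21627 ± 589 CPM in KO and 9838 ± 197 CPM in WT. The last scale was chosen after the data were seen, and on it the KO libraries lay closer together. The sum itself was not computed with median-ratio scaling. With that scaling the log2 change of EEF1A1 was -1.74, in place of -1.18 with TMM factors and -0.78 with library totals. That of EEF1A1P5 was 3.44, in place of 4.01 and 4.41. From library totals to that scaling both fell by more than the sum's ratio of 1.58 is on the log2 scale. The sum would therefore be lower in KO there, so its direction depends on the scaling.

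EEF1A1P6, whose sequence is nearly as close to the parent, did not follow EEF1A1P5. It differs from EEF1A1 at 7 bases and 1 gap, an identity of 99.5%, but its longest open reading frame is 187 codons. It had 20, 28 and 31 counts in KO, where its WT share would give 196 in all, and 5168, 5235 and 5018 counts in WT. It averaged 33.3 ± 9.0 CPM in KO and 81.9 ± 1.0 CPM in WT (SD, n = 3 each). The groups did not overlap, which held in this direction for 88.0% of the genes tested. The log2 change of EEF1A1P6 was -1.70 (SE 0.15), with an adjusted p of 3.8e-05 in edgeR's quasi-likelihood test. Relative to EEF1A1 counts it stood at 0.463%, 0.719% and 0.681% in KO and at 0.924%, 0.872% and 0.870% in WT. STEAP1B, in whose intron it lies, had 0 counts in KO and 39, 26 and 22 in WT. With so few counts in WT, a 0 at the KO depth does not show a fall.

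EEF1A1P10 was the second most counted copy in KO. It had 124, 132 and 135 counts in KO and 0 in each WT library, where 188335570 counts were read in all. That is 153, 153 and 186 CPM in KO, a mean of 164 ± 19 (SD, n = 3), and 1.00%, 1.15% and 1.04% of family counts. Set against a floor of 3 counts over the whole WT group, it was at least 10298-fold higher in KO. The adjusted p was 1.9e-05 in edgeR's quasi-likelihood test with no filter.

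A further 3 copies were called higher in KO, all from few counts. EEF1A1P12, on chr2:106697331-106698676 on the minus strand and 97.5% identical to EEF1A1, had 11, 8 and 10 counts in KO and 65, 37 and 53 in WT. At 12.2 ± 2.5 CPM in KO and 0.826 ± 0.24 CPM in WT (SD, n = 3 each) it was 14.8-fold higher in KO, with an adjusted p of 0.00018 in edgeR's quasi-likelihood test with no filter. EEF1A1P16, on chr12:16990670-16992083 on the plus strand and 92.7% identical, had 20, 8 and 13 counts in KO and 6, 5 and 16 in WT. Here the counts themselves overlap, although the WT libraries are far deeper. Its level was 17.3 ± 7.7 CPM in KO and 0.144 ± 0.10 CPM in WT (SD, n = 3 each), with a log2 change of 6.45 (SE 0.61), or 7.17 without WT replicate 3. With no filter the log2 change was 6.33, with an adjusted p of 0.00016 in edgeR's quasi-likelihood test. EEF1A1P24, on chr3:39358545-39359922 on the plus strand and 94.0% identical, had 4, 3 and 4 counts in KO and 0 in each WT library. It was at least 291-fold higher in KO against the floor of 3 counts over the WT group, with an adjusted p of 0.00096 in edgeR's quasi-likelihood test with no filter.

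Another 3 copies, tested at low levels, were near or below their WT share in KO. EEF1A1P13 (98.1% identical) had 5, 5 and 2 counts in KO and 361, 396 and 408 in WT. It lies on chr5:14651941-14653329 on the minus strand, 11334 bases before the start of OTULIN. At its WT share 14.8 counts would fall on it in KO and 12 were found, and its log2 change of -0.70 (SE 0.27) had an adjusted p of 0.073 in edgeR's quasi-likelihood test. EEF1A1P11 had 4, 2 and 2 counts in KO and 268, 260 and 280 in WT. Its log2 change of -0.76 (SE 0.27) had an adjusted p of 0.11 in the same edgeR test. Both calls depended on the scaling and the tool. With median-ratio scaling both were called lower, EEF1A1P11 at -1.31 with an adjusted p of 0.0033 and EEF1A1P13 at -1.25 with an adjusted p of 0.0045 (edgeR). DESeq2 called both (adjusted p 0.023 for EEF1A1P11 and 0.008 for EEF1A1P13). The limma fits called EEF1A1P11 (adjusted p 0.029 and 0.039) and not EEF1A1P13 (adjusted p 0.12 and 0.15), and edgeR with library totals gave adjusted p of 0.47 and 0.45. EEF1A1P19 had 1, 1 and 2 counts in KO and 181, 206 and 267 in WT, and entered the test with 0.976 ± 0.63 FPKM in KO and 2.30 ± 0.49 FPKM in WT. It was called lower at a log2 change of -1.45 (SE 0.42) with an adjusted p of 0.018 in edgeR's quasi-likelihood test, and 0.018 with no filter as well. That call was lost with library totals (adjusted p 0.10 in edgeR), without KO replicate 1 (0.088), without KO replicate 2 (0.074) and without WT replicate 3 (0.05).

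The other 13 members were below the filter. EEF1A1P9 had 0, 2 and 3 counts in KO and 64, 86 and 73 in WT. EEF1A1P30 had 0, 3 and 5 counts in KO and 6, 1 and 9 in WT, and EEF1A1P17 had 2, 0 and 3 counts in KO and 0 in each WT library. The other 10 copies (EEF1A1P3, EEF1A1P4, EEF1A1P8, EEF1A1P14, EEF1A1P18, EEF1A1P23, EEF1A1P25, EEF1A1P34, EEF1A1P39 and EEF1A1P50) had 0 counts in KO and 2 to 58 counts over the 3 WT libraries. At their WT share fewer than 1 count each, 0.0248 to 0.737, would fall on them in KO, so no fall was detectable at this depth. In all, 12 copies had a count in some KO library and 19 in some WT library, 9 of them in both. Counts in KO alone were found for EEF1A1P10, EEF1A1P17 and EEF1A1P24.

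EEF1A2 (ENSG00000101210, chr20:63488013-63499239, minus strand), the isoform of mature neurons and muscle, was read in WT only. It had 0 counts in each KO library, against 28559, 24303 and 23820 counts in WT, or 407 ± 45 CPM (SD, n = 3). At its WT share 977 counts would fall on it in the 3 KO libraries. Taking 3 counts in the whole KO group as the floor (1.25 CPM), it was at least 326-fold lower in KO, with an adjusted p of 4.7e-05 in edgeR's quasi-likelihood test with no filter. As a share of all EEF1A1, copy and EEF1A2 counts it was 0% in KO, with upper 95% Clopper-Pearson limits of 0.0298%, 0.0321% and 0.0285%, and 4.59%, 3.68% and 3.74% in WT. Its coding sequence is 78.9% identical to that of EEF1A1, with no shared run longer than 20 bases, and none of its stretches of 50 bases occurs in the EEF1A1 mRNA.

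Among the 22 copies, those closest in sequence to EEF1A1 tended to hold the most counts in both groups. Spearman's rho between identity and summed counts was 0.68 in KO and 0.63 in WT over the 22 copies, given as a description, since the copies share libraries and the same pool of similar reads. EEF1A1P10, EEF1A1P16 and EEF1A1P24 lay off this order in KO. The copies compared here were picked with their KO levels known, so the contrast supports nothing. At identities of 92.7% to 94.0% they held 391, 41 and 11 counts in KO, while EEF1A1P11, EEF1A1P13 and EEF1A1P19, at 97.0% to 98.1%, held 8, 12 and 4. In WT the same order of names gave 0, 27 and 0 counts for the more distant copies and 808, 1165 and 654 for the closer ones. EEF1A1P12, which was also higher in KO, is among the closer copies at 97.5% identity and held 29 counts in KO.

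**Figure D4:**
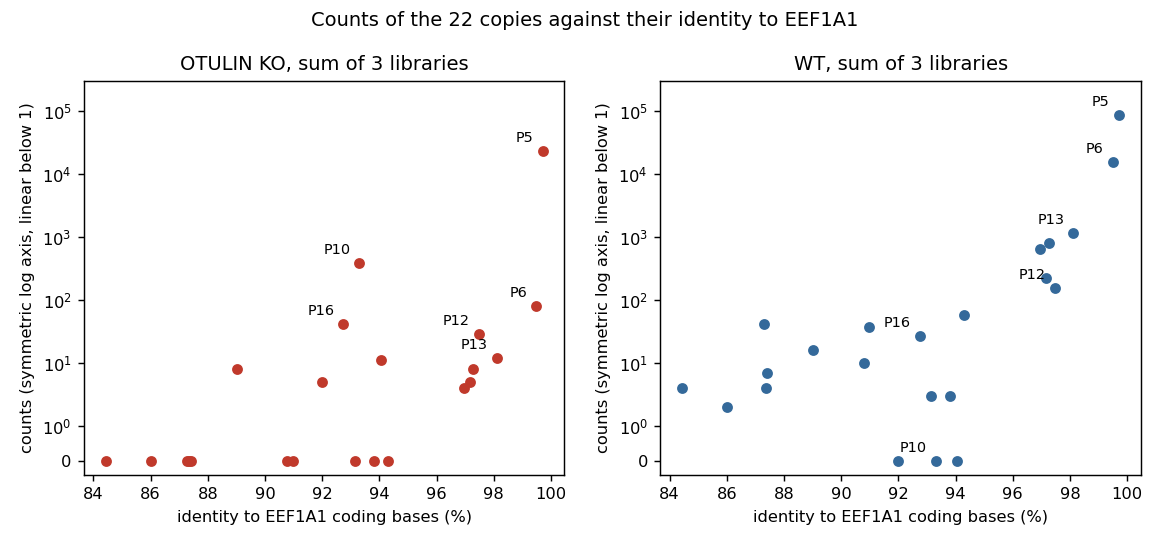
Summed counts of each of the 22 copies over 3 libraries (symmetric log axis, linear below 1) against its identity to the EEF1A1 coding sequence (%), with OTULIN KO on the left and WT on the right. EEF1A1P5 is the highest point in both panels, with 23465 counts in KO and 87552 in WT, and EEF1A1P10 has 391 counts in KO and 0 in WT.

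The EEF1A1 copies were a large part of all pseudogene reads. Rows annotated as processed pseudogenes (3582 rows) held 2.58%, 2.37% and 3.12% of counts in KO, against 0.464%, 0.459% and 0.473% in WT. EEF1A1 copies made up 38.6%, 37.2% and 37.1% of these counts in KO, against 11.6%, 12.4% and 12.3% in WT. EEF1A1P5 ranked first among them in each of the 6 libraries.

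A higher share of counts in copies was also seen for other parent genes, and so was a lower one. The table held 118 families with at least 5 copies by name, 43 of which had a value in every library. In 19 of them every KO share lay above every WT share, and in 16 every KO share lay below. Among families with at least 1 copy annotated as a pseudogene and at least 30 counts in KO, the largest KO shares were those of EIF2S2, PSMC1 and NPM1, and the largest WT shares those of SMG1 and RPS27. EIF2S2, which encodes the beta subunit of initiation factor eIF2, had 100% of its 3904 family counts in copies in KO, mostly on EIF2S2P4, and 4.95% ± 0.59 in WT. PSMC1, a proteasome ATPase, had 100% of 86 counts in copies in KO and 3.75% ± 0.31 in WT. NPM1, which encodes nucleophosmin, had 97.3% ± 4.7 of 68 counts in copies in KO and 3.001% ± 0.20 in WT. RPS27, a ribosomal protein gene, stood at 87.6% ± 11 in KO and 27.7% ± 0.34 in WT, and SMG1, a kinase of nonsense-mediated decay, at 1.04% ± 1.8 in KO and 38.8% ± 4.1 in WT (n = 3 each, SD). EEF1A1 ranked 8 by copy share in KO and 8 in WT among families with at least 30 KO counts, 9 in KO and 7 in WT among those with copies annotated as pseudogenes, and 11 in KO and 10 in WT among all with copies by name. It ranked first by the number of copy counts in KO, 24058, in each of these.

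**Figure D5:**
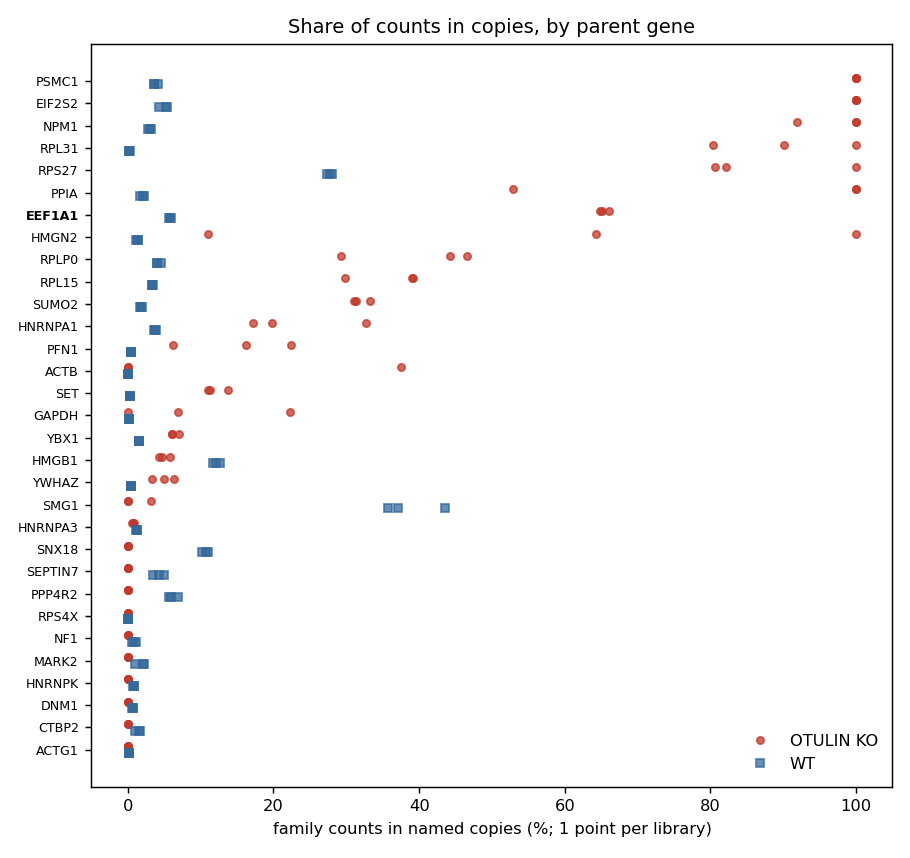
Share of family counts in named copies (%) for 31 parent genes with at least 30 counts in KO and a copy annotated as a pseudogene, with 1 point per library, OTULIN KO above WT in each row. EEF1A1 lies at 64.8% to 66.1% in KO and 5.67% to 5.87% in WT, and families such as SMG1 and HMGB1 lie lower in KO.

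Most other genes of the elongation step were lower in KO, as were most genes tested. A list of 23 genes held the eEF1 exchange complex, the enzymes that methylate eEF1A, the other cytosolic elongation factors, eEF1A-like GTPases and the mitochondrial factors. All were in the table and 21 were tested. Of these, 2 were called higher and 19 lower in KO with edgeR's quasi-likelihood test, beside 7.63% and 88.0% of all genes tested. The median log2 change was -12.45 over the list and -12.42 over all genes. Of the 19 called lower, 16 averaged 1 FPKM in WT only and so had to be lower.

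EIF5A, which helps ribosomes through difficult peptide bonds, was the higher of the pair that rose. It had 6831, 7050 and 7197 counts in KO and 30783, 28928 and 28134 in WT. This was 8841 ± 940 CPM in KO and 467 ± 25 CPM in WT (SD, n = 3 each), 18.9-fold higher in KO, with a log2 change of 3.85 (SE 0.09) and an adjusted p of 1.1e-06 in edgeR's quasi-likelihood test. GSPT1, which encodes the termination factor eRF3a, had 1238, 865 and 1290 counts in KO and 11527, 12877 and 12645 in WT. Its level was 1436 ± 396 CPM in KO and 197 ± 10 CPM in WT (SD, n = 3 each), 7.30-fold higher in KO, with a log2 change of 2.46 (SE 0.18) and an adjusted p of 1.7e-05 in edgeR's quasi-likelihood test. In both genes the groups did not overlap, which held in this direction for 8.15% of the genes tested.

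Subunits of the exchange complex fell, and so did EEF2 and TUFM. EEF1G and EEF1B2, subunits of the exchange complex that reloads eEF1A with GTP, had 0 counts in KO. In WT EEF1G had 79329, 98320 and 86138 counts and EEF1B2 had 22460, 23081 and 22520. On the same floor they were at least 1119-fold and 289-fold lower in KO, with an adjusted p of 3.9e-05 for each in edgeR's quasi-likelihood test with no filter. EEF1D, a further subunit of that complex, had 6 counts in KO replicate 3 and 0 in the other KO libraries, against 13333, 12178 and 11081 in WT. Its log2 change of -6.67 with the filter rests on that library (-6.80 and an adjusted p of 9.3e-05 in edgeR with no filter). It was -6.04 without KO replicate 1, and without KO replicate 3 all KO counts are 0. EEF2, the GTPase that moves the ribosome along the mRNA after eEF1A has acted, had 25, 22 and 30 counts in KO and 194947, 173335 and 161206 in WT. It averaged 32.6 ± 8.1 CPM in KO and 2812 ± 281 CPM in WT (SD, n = 3 each), 86.3-fold lower in KO, with a log2 change of -6.84 (SE 0.17) and an adjusted p of 1.3e-06 in edgeR's quasi-likelihood test. TUFM, the mitochondrial counterpart of eEF1A, had 0, 3 and 9 counts in KO and 18977, 17336 and 15860 in WT, or -6.18 on the log2 scale (adjusted p 3.5e-05, edgeR), -5.55 without KO replicate 1 and -7.63 without KO replicate 3.

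VARS1, the valyl-tRNA synthetase bound to the exchange complex, had the smallest change of the 19 that fell. It had 80, 109 and 104 counts in KO and 12155, 10727 and 9761 in WT, with a log2 change of -0.89 (SE 0.18) and an adjusted p of 0.0024 in edgeR's quasi-likelihood test. EEF1AKMT3, a lysine methyltransferase of eEF1A, and EIF5A2, the paralogue of EIF5A, were below the filter. EEF1AKMT3 had 0 counts in KO and 352, 338 and 374 in WT, and EIF5A2 had 0 counts in KO and 217, 337 and 306 in WT.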

How the data were processed

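The deposited table gives, per the file headers, 2 values for each gene and library, a count and an FPKM. Counts were deposited as raw whole numbers, and the authors also made the FPKM values. Tools in the submitters' processing notes were HISAT2 2.0.4, cutadapt 1.9, DESeq2 and StringTie 1.3.4d on build hg38, without their order. The sources used here do not give the annotation release, the strandedness or the handling of reads with several matches, so overlapping genes and near-identical copies can share reads.

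The genotype in each title set a library's group. Chi-square per degree of freedom was 15.5 to 41.7 for replicate pairs, so none was 1 library deposited again. The 10820 of 32862 genes whose FPKM averaged 1 or more were tested with edgeR's quasi-likelihood functions (version 4.0.16, in R 4.3.3), using TMM factors, total counts as library sizes, genotype as the only term and Benjamini-Hochberg adjustment over all genes tested. Each standard error is the size of the log2 change divided by the root of its F statistic. Shares and ratios per library were compared by two-sided exact permutation, where 0.1 is the smallest possible p. Alternatives were no filter or 5 FPKM, median-ratio scaling, library totals, DESeq2 1.42.0, limma 3.58.1 on log2(FPKM + 1) and log2(FPKM + 0.1), a replicate term and leaving out each library. The edgeR step was tested on simulated data drawn around the WT means, with as many genes raised as lowered. The changes in these data are far from balanced, so that test does not bear on the scaling here.

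Copies were aligned to the EEF1A1 coding sequence with Biopython 1.88, from GENCODE 29 transcripts on GRCh38. All 24 members had a sequence there, and 21 had the same span as in the table. A floor is 3 counts, per group of 3 libraries, and intervals and floors cover counting error only, as no molecular identifiers are given. Depth was 725827 to 862932 counts in KO and 61772795 to 64352333 in WT.

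Values per library are given for EEF1A1, EEF1A2 and each copy with at least 1 percent of family counts in any library, and for up to 10 genes of the elongation list. Those of the other copies, and the limits of 30 KO counts and a pseudogene annotation for families, were added after the values were seen. The members and lists were chosen with earlier results of these data known. Values of 2 genes are not reported here.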

Additional observations from a re-analysis of the deposited data

How the results depend on the processing

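The calls on EEF1A1, EEF1A1P5, EEF1A1P6, EEF1A1P10, EEF1A1P12, EEF1A1P16, EEF1A1P24 and EEF1A2 kept their direction and their side of the threshold in each alternative run on them except the replicate term. EEF1A1P10, EEF1A1P12, EEF1A1P16 and EEF1A1P24 entered only through KO, and EEF1A2 only through WT. These had to differ in every alternative that kept a filter on low values, so their calls there support nothing. Genes called numbered 10345, and 4504 with a mean of at least 5 FPKM, where fewer genes were tested. In the elongation list 21 genes were called, and 13 at 5 FPKM for the same reason. Replicate numbers name libraries only: deviations of same-numbered libraries correlated at 0.020, -0.0043 and 0.050. With the replicate number as a block, 741 genes, 2 members (EEF1A1P5 and EEF1A1) and 4 elongation genes were called. The family sum turned to -3695 CPM (KO minus WT) without EEF1A1P5, and was not computed with median-ratio scaling. There the shift of EEF1A1 and EEF1A1P5 would also turn the sum to lower in KO. With families of at least 2 copies (115 with a value, in place of 43), 47 in place of 19 had every KO share above every WT share and 50 in place of 16 every KO share below, so the balance turned round; the median share was then 0.747% in KO and 1.05% in WT, in place of 12.5% in KO and 1.78% in WT. EEF1A1P11 gained a call in 4 alternatives and EEF1A1P13 in 2, and EEF1A1P19 lost its call in 4, beside the replicate term. Leaving out 1 library gave 10179 to 10338 genes called, 8 to 9 members, a copy-share difference of 59.2 to 59.9 points and a family difference of 4523 to 6782 CPM. The KO depth, where 1 count is 1.16 to 1.38 CPM, limits what can be said of the low copies.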
